A study of Mus musculus with 20 samples.

Results

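The 10 genes described here mark macrophages or take part in MHC class II antigen presentation, and were followed in the thoracic aorta of 20 irradiated and sham mice. They were chosen by name, as the rows of the count table with the symbols Csf1r, Cd68, Mrc1, Cd163, Lyz2, C1qa, C1qb, Cd74, H2-Aa and H2-Ab1, which are 10 of 21078 genes. Each symbol was found, and all 10 genes were among the 13124 tested, those averaging 5 counts or more per mouse. The mice were wildtype C57BL/6 males of 10 to 12 weeks, and 10 of them received high energy protons and 10 received gamma rays over the whole body. Each radiation type was given at 0, 5, 10, 25, 50, 75, 100, 125, 150 and 200 cGy with 1 mouse per dose, so that each type had its own sham mouse, and the aorta was taken 4 hours later. With no replicate of a dose within a type, dose responses were measured as trends across the 10 doses, and the spread between mice is the spread around those trends.

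Macrophages are resident immune cells of the vessel wall, most numerous in the adventitia, where they engulf debris and sense injury. They depend on signals through the CSF1 receptor, carry scavenger and lysosomal proteins, and in many tissues are the main source of the complement recognition protein C1q. MHC class II molecules are pairs of an alpha and a beta chain that display peptides to CD4+ T cells. They are assembled with the invariant chain Cd74 and are carried by dendritic cells, B cells and a fraction of macrophages, under the control of the transactivator Ciita.

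Libraries were of nearly the same size, with totals of 6051657 to 6058006 counts and 15800 to 16949 genes with at least 1 count, because the authors had resampled the reads to 1 depth. A count of 3 corresponded to 4.95e-05% of a library. Intervals given for counts cover counting error only, since the reads carry no molecular identifiers and may come from the same molecule. The gene content of the libraries differed in its relation to GC, with a correlation across 9702 genes of -0.401 to -0.349 in the 4 mice at 150 and 200 cGy and of -0.018 to 0.283 in the other 16. The proton mouse at 75 cGy stood apart in tissue content, with 7108 counts of the brown fat gene Ucp1 against a median of 382.5, and the lowest count of the smooth muscle gene Myh11 of the 20 mice (34914). The gamma mouse at 100 cGy came next in both, with 2478 counts of Ucp1 and 46404 of Myh11. The smooth muscle actin gene Acta2, which marks the vessel wall, had 77335 to 161018 counts.

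The stretches before the start sites are shown for 1 or more genes of each group, and any link to their joint variation was not tested. Of the 10 genes, 6 were matched by symbol to RefSeq promoters of build GRCm38.p6 (Cd68, Mrc1, Cd163, Lyz2, C1qb and H2-Aa). The first pair of sequences is of class II genes, H2-Aa at chr17:34287824-34288073 on the minus strand and its neighbour H2-Eb1, another class II beta chain gene, at chr17:34305617-34305866 on the plus strand. The second pair is of macrophage genes, C1qb at chr4:136886201-136886450 and Lyz2 at chr10:117282273-117282522, both on the minus strand. Each run gives the 250 bases before the start site, 5′ to 3′. Capitals in the class II pair mark the letters CNNGCAAC, the core of the X box bound by RFX, and CCAAT, the Y box bound by NF-Y. Capitals in the macrophage pair mark GGAAGT, a core recognised by PU.1, the ETS factor of myeloid cells. All motifs were searched on both strands, no matches overlapped in these runs, and the letters were chosen after the promoters had been seen.
H2-Aa: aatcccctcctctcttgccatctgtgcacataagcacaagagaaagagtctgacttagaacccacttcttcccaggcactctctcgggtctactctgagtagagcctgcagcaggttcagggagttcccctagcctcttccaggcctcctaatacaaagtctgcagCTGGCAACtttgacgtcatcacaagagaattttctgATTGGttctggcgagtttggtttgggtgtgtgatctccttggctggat
H2-Eb1: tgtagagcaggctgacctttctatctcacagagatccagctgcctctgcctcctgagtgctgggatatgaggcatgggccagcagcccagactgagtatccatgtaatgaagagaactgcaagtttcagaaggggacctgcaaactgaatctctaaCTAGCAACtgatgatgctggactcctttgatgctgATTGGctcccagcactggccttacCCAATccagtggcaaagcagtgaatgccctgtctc
C1qb: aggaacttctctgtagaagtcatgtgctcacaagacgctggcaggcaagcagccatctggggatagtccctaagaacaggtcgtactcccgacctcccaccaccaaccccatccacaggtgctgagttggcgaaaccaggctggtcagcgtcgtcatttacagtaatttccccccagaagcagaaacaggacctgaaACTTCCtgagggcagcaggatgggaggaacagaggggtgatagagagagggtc
Lyz2: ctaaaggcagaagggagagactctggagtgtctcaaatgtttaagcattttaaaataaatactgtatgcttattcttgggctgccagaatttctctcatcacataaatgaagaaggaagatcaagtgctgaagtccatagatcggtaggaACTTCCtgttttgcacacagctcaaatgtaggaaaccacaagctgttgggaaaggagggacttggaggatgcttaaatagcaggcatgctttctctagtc

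H2-Aa and H2-Eb1 each held the X box letters upstream of a Y box, which starts 48 bases before the start site in H2-Aa and 59 bases before it in H2-Eb1, with another Y box at 35 bases in H2-Eb1. Of all 32851 promoters in the table, 9.26% held the X box letters, 33.8% the Y box and 3.16% both, and Cd163 was the other matched gene with both. The PU.1 core began 53 bases before the C1qb start site and 100 bases before that of Lyz2. It was also present in Mrc1, but not in Cd68, Cd163 and H2-Aa. It occurred in 19.7% of all promoters. These matches describe the sequences and are not evidence of binding.

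Among the receptors, Csf1r, the receptor for the macrophage growth factors CSF1 and IL-34, lies on chromosome 18 (61265226 to 61291803, plus strand, mm9, as for all gene positions below). It had 123 to 527 counts in the proton mice (median 212) and 70 to 528 in the gamma mice (median 121.5). The highest value was in the gamma sham mouse and the lowest in the gamma mouse at 150 cGy, a 7.54-fold range. The highest values of the radiation types were alike. The gamma mice at 10, 50, 75, 125 and 150 cGy had 70 to 89 counts, below the lowest proton mouse.

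Mrc1, the mannose receptor of tissue macrophages, lies on chromosome 2 (14151041 to 14253684, plus strand). It had 74 to 342 counts in the proton mice (median 206) and 52 to 342 in the gamma mice (median 90.5). Both sham mice had 342 counts, the highest value of the gene. Cd163, the scavenger receptor for haemoglobin bound to haptoglobin, lies on chromosome 6 (124254669 to 124280545, plus strand). Its counts were 43 to 252 (median 126) in the proton mice and 35 to 248 (median 73.5) in the gamma mice. Its lowest value was in the gamma mouse at 50 cGy, where Mrc1 also had its lowest count (52, shared with the gamma mouse at 150 cGy), while its highest was in the proton mouse at 125 cGy.

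Of the lysosomal and secreted products, Lyz2, the lysozyme of myeloid cells, was the most abundant member. It lies on chromosome 10 (116714390 to 116719377, minus strand) and had 450 to 1532 counts in the proton mice (median 924) and 260 to 1612 in the gamma mice (median 449). Lyz2 counts are uncertain to the extent that reads could be shared with its near-identical neighbour Lyz1, which had 6 to 87 counts. Cd68, a lysosomal membrane protein, lies on chromosome 11 (69477715 to 69479655, minus strand) and was the least counted gene, at 24 to 84 (median 33) in the proton mice and 8 to 88 (median 24) in the gamma mice. Its lowest count, 8 in the gamma mouse at 10 cGy, has an exact 95% Poisson interval of 3.45 to 15.8, and its highest, 88 in the gamma mouse at 100 cGy, one of 70.6 to 108.

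C1qa and C1qb encode chains of the C1q molecule, which starts the classical complement cascade, and lie close together on chromosome 4 (136451832 to 136454718 and 136436044 to 136442102, both on the minus strand). C1qa had 107 to 386 counts in the proton mice (median 195) and 70 to 402 in the gamma mice (median 113). C1qb had 106 to 383 (median 193.5) and 54 to 431 (median 123.5) in the same order. Both were lowest in the gamma mouse at 10 cGy and highest in the gamma mouse at 100 cGy. C1qa had the smallest range of the 10 genes, 5.74-fold.

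Of the class II genes, Cd74, the invariant chain that guides class II molecules to the endosome, lies on chromosome 18 (60963502 to 60972300, plus strand) and had the widest range, 14-fold. It had 125 to 729 counts in the proton mice (median 235.5) and 63 to 883 in the gamma mice (median 232.5), with exact 95% Poisson intervals of 48.4 to 80.6 for the lowest and 826 to 943 for the highest. H2-Aa and H2-Ab1 encode the alpha and beta chains of the I-A molecule and are neighbours on chromosome 17, at 34406276 to 34424772 on the minus strand and 34400154 to 34406363 on the plus strand. Their annotated ends overlap, and the counts are of the sense strand. H2-Aa had 55 to 326 counts in the proton mice (median 99) and 38 to 457 in the gamma mice (median 113.5). H2-Ab1 had 42 to 216 (median 61.5) and 27 to 293 (median 80.5). All 3 class II genes were highest in the gamma mouse at 100 cGy, which was followed by the proton mouse at 75 cGy.

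**Figure D1:**
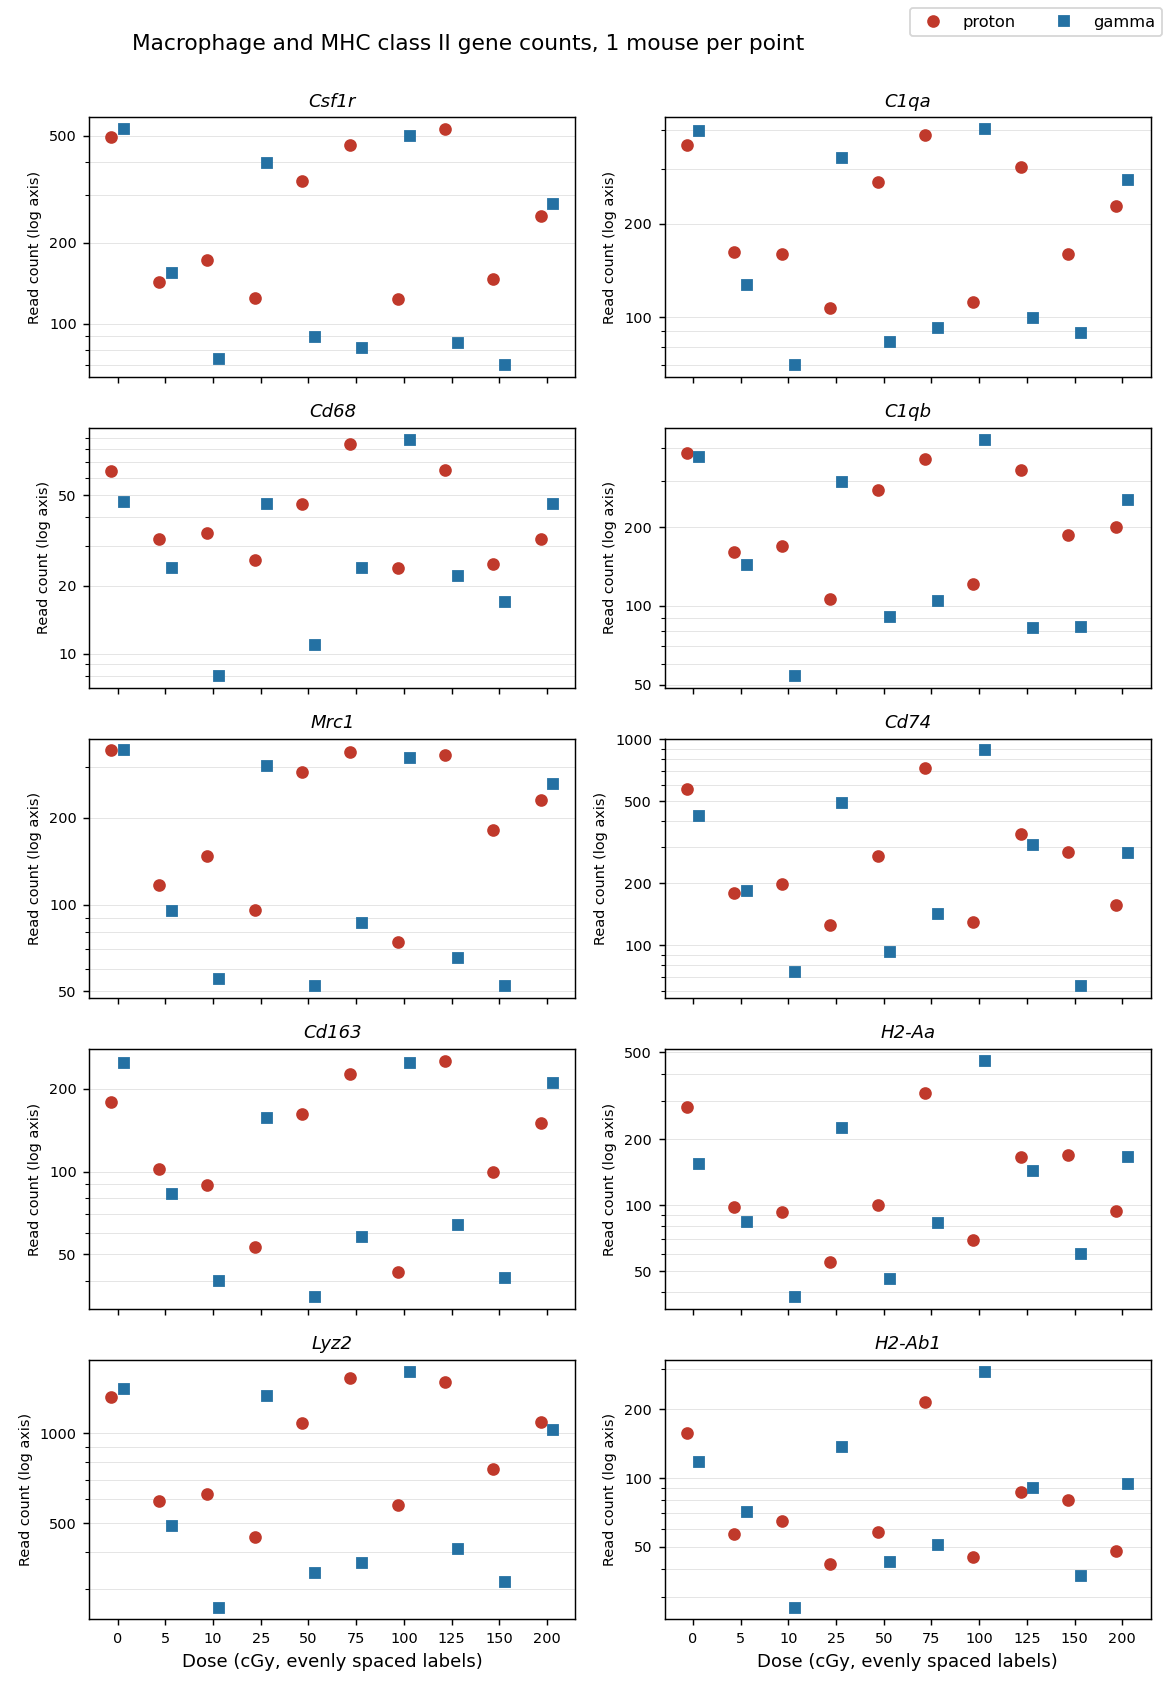
Read counts (log axis) of the 10 genes against dose in cGy, with 1 point per mouse, circles for proton and squares for gamma radiation; dose labels are evenly spaced. High and low mice alternate along the dose axis in both types, for example 528, 154, 74 and 394 counts of Csf1r at 0, 5, 10 and 25 cGy of gamma rays.

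Per kilobase of annotated exon, the median level over the 20 mice was 528 counts for Lyz2, 167 for Cd74, 164 for C1qb and 155 for C1qa. It was 49.8 for H2-Aa, 41.4 for H2-Ab1, 31.2 for Csf1r, 27.6 for Mrc1, 25.5 for Cd68 and 22.5 for Cd163. Within a mouse, Lyz2 exceeded Cd74 per kilobase in 20 of 20 mice (median 3.56-fold) and C1qa exceeded H2-Aa in 20 of 20 (median 3.13-fold). The order was nearly as regular for Csf1r over Mrc1 (19 mice), H2-Aa over H2-Ab1 (18 mice) and H2-Ab1 over Csf1r (16 mice), and less so for Cd68 over Cd163 (14 mice). It was mixed for Cd74 over C1qb (8 mice, ratios of 0.586 to 2.9), C1qb over C1qa (9 mice, 0.737 to 1.12) and Mrc1 over Cd68 (9 mice, 0.624 to 1.54). These orders were not tested.

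The spread of these genes between mice was large for this tissue. The SD of their log2 CPM (counts relative to library size, scaled with TMM and with a prior count of 1) was 0.84 to 1.04 over the 20 mice, while the median over all tested genes was 0.24. The biological coefficient of variation estimated by edgeR around the dose trends was 0.54 to 0.71 for the 10 genes and 0.14 for the median gene. Each of the 10 lay between the 95.1st and 97.9th percentile of the tested genes. In bulk tissue, fewer cells of a type and less RNA per cell cannot be told apart.

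The same mice were high or low for gene after gene. In 6 mice, the 2 sham mice, the proton mice at 75 and 125 cGy and the gamma mice at 25 and 100 cGy, all 10 genes ranked among the 8 highest of the 20 values. The gamma mouse at 200 cGy had 8 genes in these ranks and the proton mouse at 50 cGy had 7. At the other end, the ranks of the 10 genes were 18 to 20 in the gamma mouse at 10 cGy, 17 to 20 at 150 cGy and 16 to 20 at 50 cGy of gamma rays. The mean log2 CPM of the 7 macrophage genes went from 3.22 in the gamma mouse at 10 cGy to 5.91 in the gamma mouse at 100 cGy, and that of the 3 class II genes from 2.88 to 6.31 in the same mice.

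**Figure D2:**
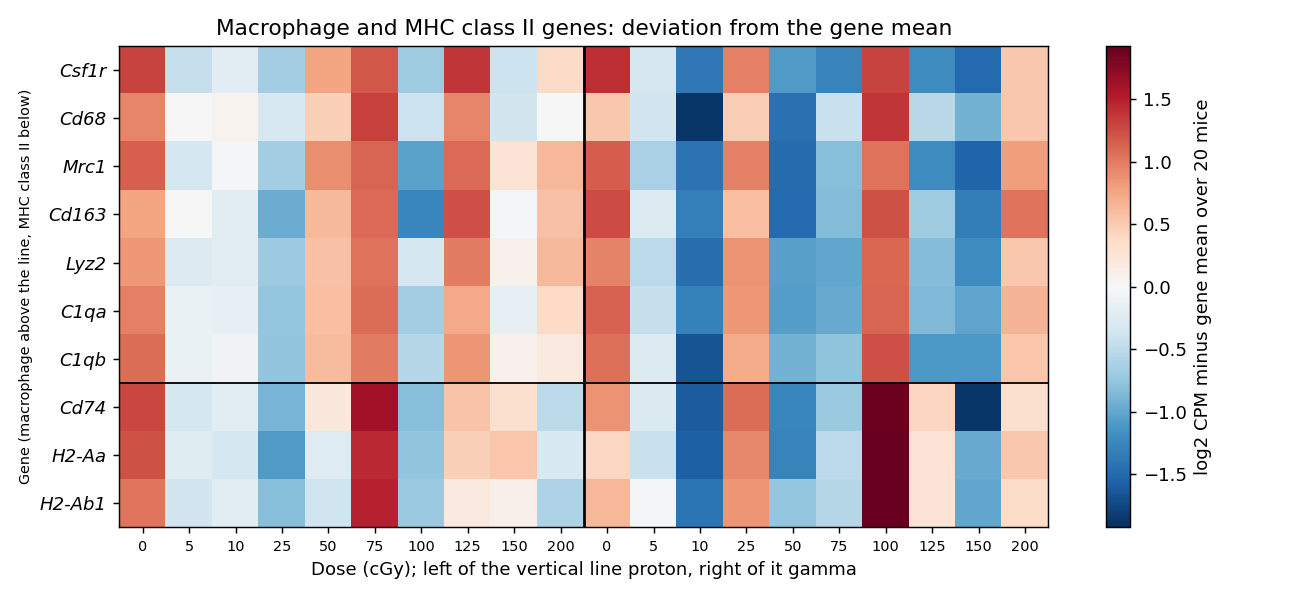
Heat map of log2 CPM of each gene (rows) in each mouse (columns, by dose in cGy), minus the mean of the gene over the 20 mice; the vertical line parts proton from gamma mice and the horizontal line the 7 macrophage from the 3 class II genes. Most columns are of 1 colour, with the proton mouse at 75 cGy and the gamma mouse at 100 cGy high and the gamma mouse at 10 cGy low in all 10 genes.

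Correlations among the 10 genes were higher within the macrophage and class II groups than between them. Over the 20 mice, the 21 pairs among the 7 macrophage genes had a Pearson's r of 0.90 to 0.98 (median 0.97) and a Spearman's rho of 0.92 to 0.97. The 3 pairs among the class II genes had r of 0.96 to 0.97 and rho of 0.94 to 0.97. The 21 pairs between the groups had r of 0.75 to 0.88 (median 0.84) and rho of 0.77 to 0.87. Each of the 45 correlations was tested with 100000 permutations, two-sided, and adjusted over the 45 pairs. The p of r within both groups was 1e-05, the smallest that 100000 permutations can give (adjusted p = 1.3e-05), and the largest between them was 1.7e-04 (adjusted p = 1.7e-04), for Mrc1 and H2-Ab1 (r = 0.75). For the rank correlation the largest p was 2.3e-04 (adjusted p = 2.3e-04), for Csf1r and H2-Aa (rho = 0.77). Genes of a pair share the library, so that its depth and tissue content enter both values.

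**Figure D3:**
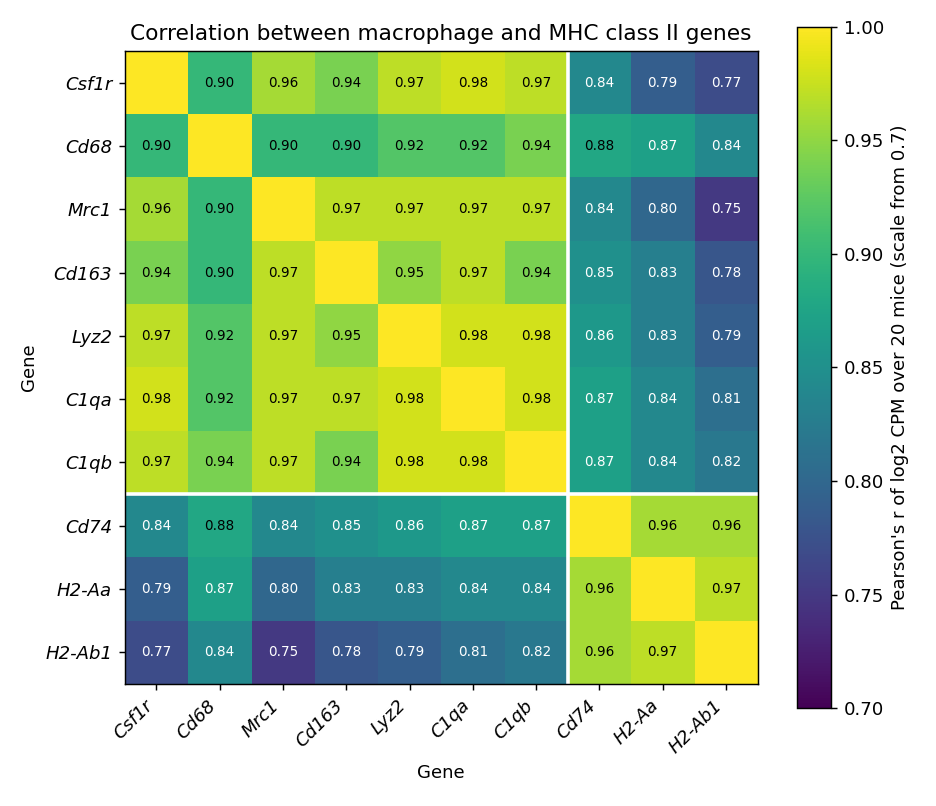
Pearson's r of log2 CPM over 20 mice for each pair of the 10 genes, with the value printed in each cell and a colour scale that starts at 0.7; the white lines part the macrophage from the class II genes. Values are 0.90 to 0.98 among macrophage genes, 0.96 to 0.97 among class II genes and 0.75 to 0.88 between the groups.

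The joint variation was present in each radiation type by itself and with the dose slopes removed. The median r of the 45 pairs was 0.88 in the 10 proton mice and 0.93 in the 10 gamma mice, and 0.93 after the intercept and dose slope of each type had been removed. When the 2 mice farthest from the median of the first gene of a pair were left out, r was 0.70 to 0.98. The tightest pairs included C1qa and C1qb (r = 0.98), whose products join in 1 molecule, and Lyz2 and C1qa (r = 0.98). Cd68, the gene with the fewest counts, had the lowest values of the macrophage group (0.90 to 0.94).

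The class II genes also varied apart from the macrophage genes. The mean log2 CPM of the class II genes minus that of the macrophage genes had a median of -0.36 and an SD of 0.49, and spanned 4.30-fold from mouse to mouse. It was lowest in the proton mice at 200 (-1.18), 50 (-1.09) and 125 cGy (-0.94). It was highest in the gamma mouse at 125 cGy (0.93), followed by the gamma mouse at 100 cGy (0.40). In the gamma mouse at 125 cGy the macrophage genes were low, with 85 counts of Csf1r and 99 of C1qa, while Cd74 had 308 counts and H2-Aa 143.

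**Figure D4:**
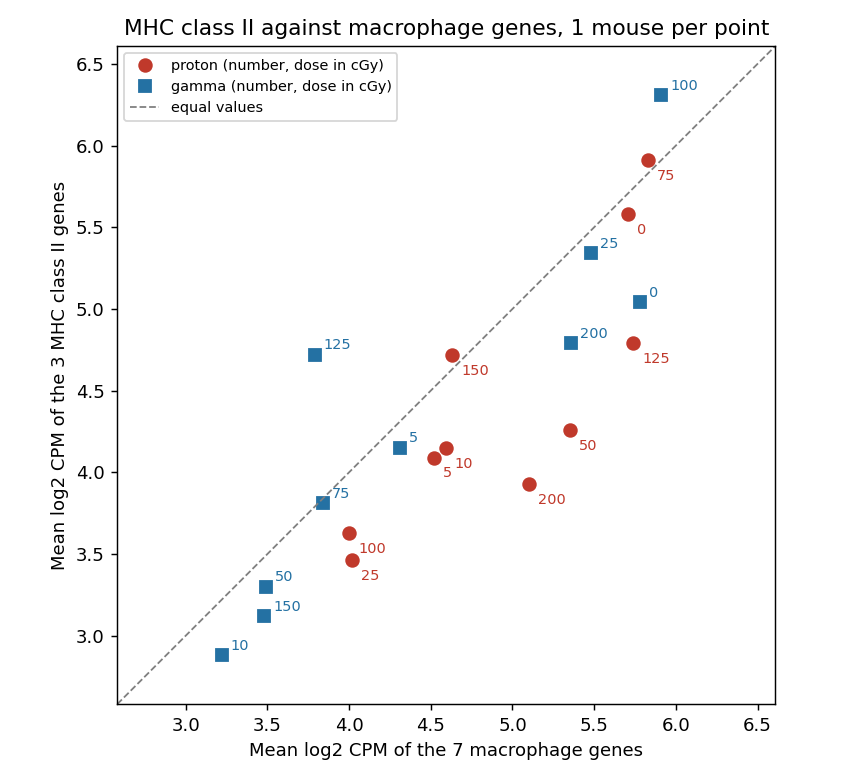
Mean log2 CPM of the 3 MHC class II genes against that of the 7 macrophage genes, 1 point per mouse, with dose in cGy beside each point, circles for proton and squares for gamma radiation and a dashed line of equal values. Most points follow the line from lower left to upper right, and the gamma mouse at 125 cGy lies above it by 0.93 and the proton mouse at 200 cGy below it by 1.18.

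Dose responses, the primary outcome of the study, were tested next. None of the 10 genes had a dose slope that passed the threshold of 0.1 on the adjusted p in edgeR, in either radiation type. Over all tested genes, 1.76% passed for the proton slope (210 higher and 21 lower with dose) and 7.65% for the gamma slope (714 higher and 290 lower). The log2 slopes per 100 cGy of the 10 genes were -0.23 to 0.23 for protons (median -0.01, 5 above and 5 below 0) and -0.25 to 0.33 for gamma rays (median 0.00, likewise 5 and 5). The median of all genes was 0.00 and 0.01. No slope of the 10 genes had an unadjusted p under 0.05, and the lowest adjusted p was 0.896 (Lyz2, protons) and 0.832 (H2-Aa, gamma rays). DESeq2 likewise called 0 of the 10 in both types, and 310 genes for the proton and 1195 for the gamma slope over all genes.

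The standard errors set what these slopes can show. They were 0.41 to 0.56 for the 10 genes for protons and 0.39 to 0.54 for gamma rays, against a median of 0.11 for all genes in both. For Csf1r the slope was 0.03 ± 0.51 (SE) for protons, with a 95% interval of -1.04 to 1.11, and -0.25 ± 0.48 for gamma rays, with -1.25 to 0.75. For Cd74 it was -0.22 ± 0.56 and 0.05 ± 0.54. The 95% intervals of the 10 genes reached from -1.39 to 1.20 for protons and from -1.25 to 1.39 for gamma rays, and a log2 fall of 1 per 100 cGy lay inside both intervals of Csf1r and both of Cd74. With 0 to 125 cGy only, which leaves out the 4 mice with the lowest GC correlations, the slopes moved and their errors were larger. The gamma slope became 1.02 ± 0.78 for H2-Aa, 0.82 ± 0.73 for H2-Ab1 and 0.73 ± 0.81 for Cd74, and all 10 proton slopes were above 0 (0.09 to 0.57). None of the 10 passed the threshold in edgeR, and the lowest adjusted p was 0.983 for protons and 0.967 for gamma rays. Over all tested genes, these fits called only 14 for the proton and 34 for the gamma slope.

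The exact two-sided permutation test of the rank correlation of TMM-scaled CPM with dose, which runs through each order of the 10 dose levels, also called 0 of the 10 genes. It called 0.0762% of all tested genes for protons and 1.73% for gamma rays. Spearman's rho with dose was -0.18 to 0.22 for protons, with the lowest exact p at 0.537 (adjusted p = 0.892) for Lyz2. For gamma rays it was -0.31 to 0.15, with 9 of the 10 genes below 0 and the lowest exact p at 0.387 (adjusted p = 0.713) for Csf1r and Mrc1.

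**Figure D5:**
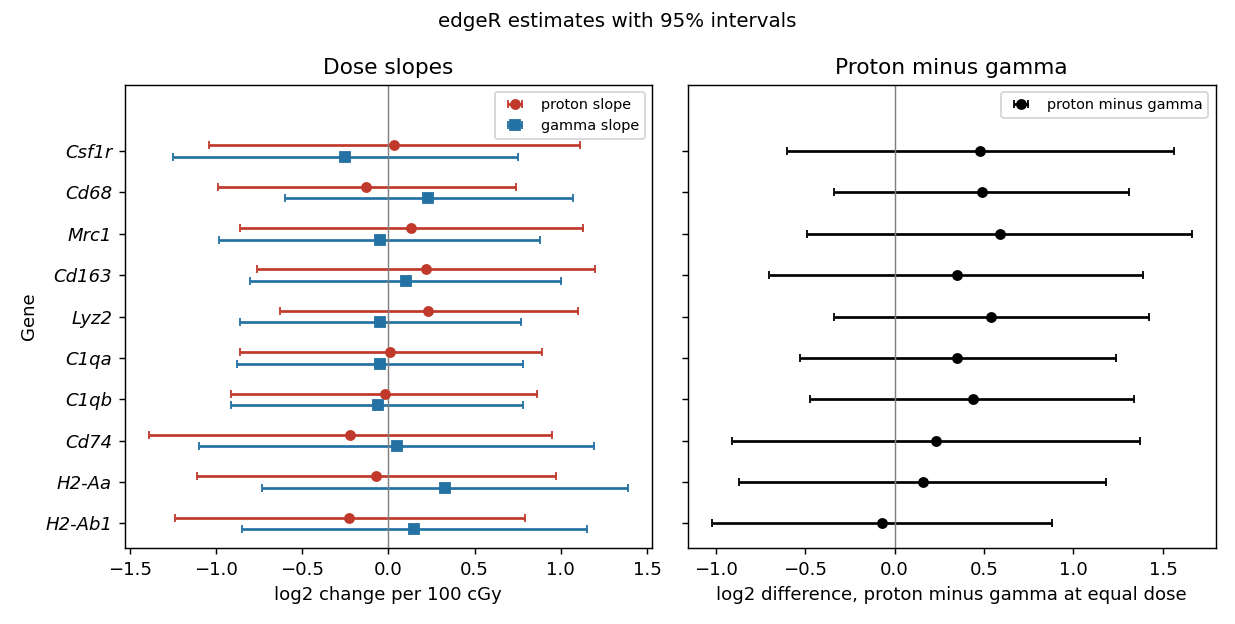
edgeR estimates for the 10 genes with 95% intervals, on the left the log2 change per 100 cGy for protons (circles) and gamma rays (squares), on the right the log2 difference of proton minus gamma mice at equal dose. Every interval includes 0, and the estimates on the right lie between -0.07 and 0.59.

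Comparison of the radiation types gave no call among the 10 genes either. The proton slope minus the gamma slope was -0.40 to 0.28 per 100 cGy (adjusted p = 1 for each in edgeR), and 0% of the tested genes passed this test, with 254 genes at an unadjusted p under 0.05 and 0 genes called by DESeq2. At matched dose, with dose as a block, proton mice minus gamma mice gave log2 differences of -0.07 to 0.59 with a median of 0.40, and 9 of the 10 were above 0. The largest was that of Mrc1, 0.59 ± 0.48 (SE), and the lowest p was that of Lyz2 (0.54 ± 0.40, p = 0.205, adjusted p = 0.777, edgeR). This comparison called 0% of the tested genes in edgeR, with 1032 at an unadjusted p under 0.05, while DESeq2 called 70 genes and none of the 10. Without the pair at 75 cGy the median of the 10 genes was 0.18 and 7 were above 0, with 0.22 for Csf1r, 0.12 for Cd163 and 0.13 for C1qa. Without the pair at 100 cGy the median was 0.66 and all 10 were above 0, with a lowest p of 0.0337 (Cd68, adjusted p = 0.385, edgeR).

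The direction of the difference between types changed from dose to dose for all genes at once. All 10 genes had higher counts in the proton than in the gamma mouse at 10, 50, 75 and 150 cGy, with median ratios of 2.43, 3.24, 4.06 and 2.33. None of the 10 was higher in the proton mouse at 25 and 100 cGy, where the median ratios were 0.323 and 0.238. Between the sham mice the median ratio was 1.02, with 5 genes higher in the proton mouse, 4 higher in the gamma mouse and Mrc1 equal. At 125 cGy the groups of genes parted, with 6.2 times as many Csf1r counts in the proton mouse, but 1.12 times for Cd74, 1.16 for H2-Aa and 0.967 for H2-Ab1.

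Both sham mice were among the 6 high mice, and a comparison of the 18 irradiated with the 2 sham mice was therefore added after the data had been seen. All 10 genes were lower in the irradiated mice in this fit, with log2 differences of -1.22 to -0.60 and a median of -0.87, against 0.03 for all tested genes. The medians of other lists went both ways. Of the lists nearest to the 10 genes, other macrophage markers had -0.84 and genes of resident and recruited macrophages -0.60. Other genes of class II presentation had -0.20 and genes of the CSF1 axis 0.07. The medians were -0.82 for mast cell, -0.67 for neutrophil, -0.60 for fibroblast, -0.53 for complement and -0.49 for endothelial genes. MHC class I (-0.11), brown fat (-0.09) and dendritic cell genes (-0.04) were nearer 0. Smooth muscle (0.12), white fat (0.30) and skeletal muscle genes (0.44) were higher in the irradiated mice. The part of these lists in the difference was not tested. None of the 10 genes passed the threshold in edgeR or DESeq2. Csf1r had the largest difference, -1.22 ± 0.59 (SE, p = 0.0538, adjusted p = 1), followed by Mrc1 (-1.02 ± 0.58). Again 0% of the tested genes were called in edgeR and 0 genes in DESeq2, and 504 genes had an unadjusted p under 0.05. Single irradiated mice reached the sham values, with 498 counts of Csf1r at 100 cGy of gamma rays and 527 at 125 cGy of protons against 493 and 528 in the sham mice.

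The wider macrophage program was read from lists of other genes. All 22 listed macrophage markers with a row in the table were tested, and their mean log2 CPM had r = 1, after rounding, over the 20 mice with the mean of the 7 macrophage genes. Correlations with such means are descriptions over 20 libraries and were not tested. Tyrobp, an adaptor of activating receptors, had 12 to 76 counts and r = 0.97. Ptprc, the leukocyte antigen CD45, had 7 to 77 counts and r = 0.96, and Itgam, the integrin CD11b, 14 to 123 counts and r = 0.94. Of the 17 listed genes of resident and recruited macrophages, 16 were tested (r = 0.98 for their mean), and they included Lyve1, a hyaluronan receptor of perivascular macrophages (71 to 293 counts, r = 0.91), and Ccr2, the receptor of recruited monocytes (4 to 64 counts, r = 0.80).

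Not every gene of these lists moved with the macrophage genes. Mertk, a receptor for dying cells (403 to 1166 counts), had r = -0.38, its ligand Gas6 (3083 to 5239 counts) r = 0.16, and the carbonyl reductase Cbr2 (1816 to 2931 counts) r = -0.59. Of the growth factors, Csf1 (428 to 694 counts) had r = 0.49 and Il34 (3 to 16 counts) r = -0.03 with the mean of the macrophage genes.

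Of 22 listed genes of class II presentation, 18 were tested. Their mean log2 CPM had r = 0.92 with the mean of the 3 class II genes, and r = 0.95 with that of the macrophage genes. The chains differed in how closely they followed the 3 genes. H2-Eb1 (30 to 293 counts) had r = 0.98 with the mean of the 3 class II genes and H2-DMa, a chain of the peptide exchange factor (7 to 46 counts), r = 0.91, while its partner chain H2-DMb1 (26 to 62 counts) had r = 0.48. Ciita was counted 0 to 22 times (r = 0.68). Genes for factors that bind the X and Y boxes had r from -0.62 for Rfx5 (152 to 214 counts) to 0.14 for Nfyc (192 to 295), with -0.36 for Nfya, -0.34 for Rfxank, -0.27 for Creb1, -0.22 for Rfxap and -0.18 for Nfyb between them. H2-D1 and H2-K1, heavy chains of MHC class I, had r = 0.91 and 0.89, and B2m, their light chain, r = 0.87.

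No gene of the macrophage, MHC, dendritic cell and complement lists passed the threshold in any of the edgeR comparisons, 0 of 86 tested. Over all tested genes, 1.76% passed for the proton slope and 7.65% for the gamma slope. The slope difference, the matched and the sham comparison called 0%. The smallest p for the proton slope over the macrophage and class II lists were those of Creb1 (log2 slope 0.25 ± 0.09 SE, p = 0.0162, adjusted p = 0.241), Gas6 (0.21 ± 0.08, p = 0.0174, adjusted p = 0.249) and Mertk (0.25 ± 0.10, p = 0.0253, adjusted p = 0.289). For the gamma slope they were those of Mertk (0.27 ± 0.10, p = 0.0196, adjusted p = 0.163), Gas6 (0.15 ± 0.08, p = 0.0728, adjusted p = 0.332) and Rfxank (-0.15 ± 0.09, p = 0.102, adjusted p = 0.395). Without the proton mouse at 75 cGy, Mertk passed for both slopes (0.24, adjusted p = 0.0384, and 0.25, adjusted p = 0.0122). Without the proton mouse at 125 cGy, Creb1 passed for the proton slope (0.31, adjusted p = 0.0576), and without the gamma mouse at 25 cGy, Tap1, a peptide transporter subunit of class I presentation, passed for the gamma slope (0.48, adjusted p = 0.0884). At matched dose Mertk passed as lower in proton mice in DESeq2 (-0.32, adjusted p = 0.0822) and in edgeR without the pair at 75 cGy (-0.24, adjusted p = 0.098). Over all tested genes, these matched fits called 70 and 20 genes. The share called over all genes with 1 mouse left out is not given here, so that the single calls cannot be set against it.

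In these lists, 43 of the 86 tested genes had r of at least 0.8 with the mean of the macrophage genes and 31 with that of the class II genes. Among the 13114 tested genes other than the 10, the shares were 2.76% and 1.46%. The 10 genes most like the macrophage genes, of 9808 with a mean count of at least 50, were C1qc (r = 0.99), F13a1 (0.98), Fcgr3, Lcp1, Ctss and Folr2 (0.97 each), Pf4 and Arhgdib (0.96 each), Emr1, now named Adgre1, and Man1a (0.95 each). The 10 most like the class II genes were H2-Eb1 (0.98), Laptm5 (0.92), Ucp2, H2-D1 and Lgals9 (0.91 each), Apoe (0.90), H2-K1, Nid1 and Lcp1 (0.89 each) and H2-Gs10 (0.88). Lcp1, which encodes an actin bundling protein of leukocytes, was in both sets.

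Markers of the other cells that can carry class II molecules, or that lie beside macrophages, moved with the same genes to different degrees. B cell markers were near 0, with 0 to 69 counts in all for 8 genes, and Cd79a at 0 to 17, highest in the gamma mouse at 25 cGy. T and NK cell markers summed to 2 to 36 counts, and Cd3e had no more than 1 count in any mouse. Of 10 listed dendritic cell genes, 3 reached a mean count of 5, and their mean log2 CPM ranged from 1.8 to 3.49, with r = 0.90 with the macrophage and 0.83 with the class II genes. Of the 3, Siglech (0 to 18 counts) had r = 0.89 and 0.80 in this order, Bst2 0.55 and 0.73, and Zbtb46, a factor of conventional dendritic cells, -0.07 and -0.16. Neutrophil genes, of which 3 were tested, had a mean log2 CPM of -2.60 to 2.14 with r = 0.82 and 0.71, and 4 mast cell genes one of 0.07 to 2.86 with r = 0.66 and 0.69.

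Genes of the adventitia and the endothelium varied along with the macrophage genes as well. The mean log2 CPM of 6 fibroblast genes ranged from 7.49 to 9.09 and had r = 0.85 with that of the macrophage genes. That of 6 endothelial genes ranged from 5.01 to 7.21 (r = 0.85). For 12 tested complement genes, a list not tied to a cell type, it ranged from 4.62 to 6.43 (r = 0.96). Single complement genes had r with the macrophage mean from 0.67 for Cfp to 0.97 for the receptor gene C3ar1. Dcn, a proteoglycan of fibroblasts, had 12838 counts in the gamma sham mouse and 3969 in the gamma mouse at 150 cGy, which had the highest and the lowest Csf1r counts. Smooth muscle genes went the other way, with a range of 10.54 to 11.77 over 6 genes and r = -0.61 with the macrophage and -0.67 with the class II genes. Brown fat genes (3.06 to 7.18) had r = 0.55 and 0.72 in the same order, and white fat genes (4.79 to 8.88) r = 0.26 and 0.53. The part of these tissue differences in the values of the 10 genes was not tested. The median r of the 45 pairs was 0.90 both with all mice and without the pair at 75 cGy, and 0.89 without the proton mouse at 75 cGy and the gamma mouse at 100 cGy. The number of genes detected in a mouse had r = 0.64 with the mean of the macrophage genes and 0.71 with that of the class II genes, and the GC measure had r = -0.06 and 0.03. Their part was not tested.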

How the data were processed

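Thoracic aorta RNA of 20 mice was sequenced by the authors from polyA-selected, strand-specific libraries as paired reads of 100 bases. Per the labels and the study's methods, CASAVA 1.8.1, STAR 2.5.2a (mm9) and the resampling of PORT v0.8.2a-beta were used, and the deposited values are sense-strand read counts of genes, already at 1 depth of about 6056776 per mouse. Groups and doses came from the labels, and all columns matched a sample. Positions are from GENCODE M1, built on the same assembly.

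Counts were analysed in edgeR 4.0.16 (R 4.3.3) with TMM and robust quasi-likelihood fits on the 13124 genes that averaged 5 counts or more, with an intercept and a dose slope for each radiation type, and in a further fit of radiation type with dose as a block. Adjusted p-values are by Benjamini-Hochberg over all tested genes, threshold 0.1. Rank trends were tested by permutation on TMM-scaled CPM, and correlations between genes on log2 CPM computed with a prior count of 1. Both were run in Python 3.11.15 with numpy 2.4.6 and scipy 1.17.1. The tests were tried on simulated data. Alternatives included DESeq2 1.42.0, other filters and scalings of dose, a correction for GC and length, 0 to 125 cGy only, and leaving out each mouse or pair. The irradiated against sham comparison, the use of 0 to 125 cGy for correlations and rank trends, and correlations without 2 mice, were added after seeing the data. Each sample was 1 mouse, and p-values of the fits set an estimate against the spread of mice around the fit. For the slopes, that spread also holds any departure from a straight line with dose, as each type had 1 mouse per dose.

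The 10 genes and all lists were chosen with earlier results of these data known. Named genes are the 10, list genes called in any comparison or otherwise the 3 of smallest p per radiation type in the macrophage and class II lists, and the 10 most alike to each group. Other genes in the text were chosen after their values were seen. Intron and antisense counts were not analysed here.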

Additional observations from a re-analysis of the deposited data

How the results depend on the processing

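The 10 genes had 0 calls under every alternative run for every comparison, edgeR and DESeq2 included. Of 1325 values of single genes under alternatives, 1231 kept their direction and 94 changed sign. The changes were in 32 of the proton slopes, 29 of the gamma slopes, 24 of the slope differences and 9 of the matched differences. No sign changed for irradiated against sham mice. Each type had its own intercept and slope, so that leaving out a mouse of 1 type hardly moves the slope of the other. The Csf1r proton slope, for example, was 0.03 whichever gamma mouse was left out. Such values are counted as keeping their direction, and the 1231 therefore overstates how stable the slopes were. The slopes are near 0 beside their errors, so that their signs carry no direction. With 1 mouse per dose, the spread between mice limits the precision of each value, and counting error was widest for Cd68, with 8 counts in its lowest mouse. The cause of each change was not tested.

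With 0 to 125 cGy only, the proton slope became 0.36 for Cd68, 0.22 for C1qb, 0.16 for Cd74, 0.10 for H2-Aa and 0.09 for H2-Ab1, and the gamma slope -0.17 for Cd163. Without a change of sign, other values moved there by over 1.5 times, among them gamma slopes of 1.02 for H2-Aa, 0.82 for H2-Ab1 and 0.73 for Cd74, a proton slope of 0.52 for Csf1r and a slope difference of 0.96 for Csf1r. With dose as its rank, the proton slope was -0.01 for Csf1r and C1qa and the gamma slope -0.01 for Cd163. With log2(dose + 1), the proton slope was -0.03 for Csf1r and C1qa and -0.01 for Mrc1, and the gamma slope -0.07 for Cd163 and 0.00 for Cd74. Correction for GC and length gave a C1qb proton slope of 0.03. In the fit of matched mice, H2-Aa was -0.01 with no replicate block, and without the pair at 75 cGy Cd74 was -0.06 and H2-Aa -0.10. The replicate block in the slope difference changed no call, with 0.29 for Csf1r.

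When 1 mouse was left out at a time, the proton slope ranged as follows: Csf1r -0.16 to 0.38, Cd68 -0.26 to 0.02, C1qa -0.09 to 0.24, C1qb -0.14 to 0.23, Cd74 -0.37 to 0.11, H2-Aa -0.21 to 0.30 and H2-Ab1 -0.36 to 0.05. The gamma slope ranged as follows: Csf1r -0.79 to 0.13, Mrc1 -0.74 to 0.29, Cd163 -0.53 to 0.50, Lyz2 -0.47 to 0.23, C1qa -0.52 to 0.28, C1qb -0.47 to 0.24, Cd74 -0.18 to 0.32 and H2-Ab1 -0.08 to 0.38. The slope difference ranged as follows: Csf1r -0.10 to 0.83, Mrc1 -0.16 to 0.88, Cd163 -0.29 to 0.75, Lyz2 0.00 to 0.71, C1qa -0.27 to 0.53, C1qb -0.27 to 0.44 and Cd74 -0.54 to 0.07. The proton minus gamma difference with 1 mouse or pair left out ranged as follows: Cd74 -0.06 to 0.54, H2-Aa -0.10 to 0.46 and H2-Ab1 -0.34 to 0.22.

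Of the 86 tested genes of the macrophage, MHC, dendritic cell and complement lists, 0 to 1 were called with 1 mouse or pair left out for the proton slope, the gamma slope and the matched comparison. It was 1 without the pair at 75 cGy in all 3 (Mertk), 1 with DESeq2 in the matched comparison (Mertk), 1 without the proton mouse at 75 cGy for both slopes (Mertk), 1 without the proton mouse at 125 cGy for the proton slope (Creb1) and 1 without the gamma mouse at 25 cGy for the gamma slope (Tap1). The share called over all tested genes is not given for most of these fits, so that a count of 0 or 1 cannot be set against it. The median correlation of the 45 pairs was 0.90, or 0.93 as Spearman's rho, and 0.89 to 0.92 with 1 mouse left out.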
